A study of Triticum aestivum with 13 samples.

Results

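The 17 probe sets described here gave a lower signal in every infested repeat of the aphid-resistant wheat lines TugelaDn1, TugelaDn2 and TugelaDn5 than in any repeat of the susceptible cultivar Tugela. They were drawn from 61179 probe sets of the Affymetrix wheat GeneChip, an array on which a group of short probes, the probe set, reads 1 transcript. All lines are bread wheat (Triticum aestivum) and near-isogenic. Tugela (genotype Dn0) is the common background, and each resistant line carries the Dn gene in its name. TugelaDn1 is labelled antibiotic, which means that feeding on it harms the aphid, TugelaDn2 tolerant, which means that the plant bears feeding with little damage, and TugelaDn5 both antibiotic and antixenotic, which means that aphids settle on it less. Greenhouse plants of every line, Tugela included, were given 10 Russian wheat aphids (Diuraphis noxia, biotype SA1) per plant at the stage of 3 leaves, and RNA came from all leaves but the first after 48 h. Each line had 3 biological repeats, and TugelaDn5 repeat 3 was the average of 2 arrays, labelled 3 and 3_2 and read as 1 repeat. No uninfested leaves entered the comparison, and constitutive and feeding-induced differences cannot be told apart.

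Dn genes are wheat loci that limit damage by the Russian wheat aphid, a phloem feeder whose attack rolls and streaks the leaves of susceptible plants. Resistance of cereals to aphids is commonly divided into antibiosis, antixenosis and tolerance, and the 3 resistant lines together represent all of these. A susceptible plant feeds the colony from its phloem, and its chloroplasts and leaf form suffer under feeding. Near-isogenic lines keep most of the genome constant around the introduced resistance locus.

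Signals are given as log2 of the deposited intensity, with intensities under 16 set to 16, so that 4 is the floor of the scale. A member had its highest value among the 9 resistant repeats below the lowest of the 3 Tugela repeats, a mean at least 0.8 below Tugela in each resistant line, and a Tugela mean of 8 or more. Of 61179 probe sets, 18730 reached that Tugela mean, 285 of these had no overlap between the resistant repeats and Tugela, and 17 also met the distance in every line. No overlap was found in 1.52% of the probe sets at that level. Without the condition on the level, 459 probe sets (0.75% of all) had no overlap and 117 of them met the distance. The members were selected on their contrasts with Tugela, so every distance from Tugela below is a description. The limma calls of members against Tugela, counted once near the end, reuse the values of the rule and are not evidence for it. Differences among the resistant lines were not part of the rule, and these were tested with limma over all 61179 probe sets. In whole leaves, fewer cells of a type and less RNA per cell cannot be told apart.

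Leaf marker genes had bright probe sets in every line, beside dim ones. Array-wide medians lay between 82.5 and 97.97 in intensity, and 19.3% to 21.4% of the values were under the floor. The list of leaf carbon fixation and photosystem genes matched 36 probe sets of 6 of its 18 genes, and their summed intensity was 411424 to 618721 in TugelaDn1, 393838 to 451719 in TugelaDn2, 385116 to 472500 in TugelaDn5 and 384628 to 555537 in Tugela. These ranges overlapped between all lines, and 0 of the 36 probe sets were called by limma in any of the 6 contrasts between lines, with 0 to 8 at an unadjusted p under 0.05. Its brightest members, rbcl (the large subunit of Rubisco) and PsbO (a subunit of the oxygen-evolving complex), had log2 means of 16.73 to 16.83 and 16.26 to 16.36 on their brightest probe sets. Of the 36, 0 met the rule. Markers of other tissue were called in single lines. The seed storage list matched 2 dim probe sets of 1 gene of 14, an avenin-like gene, with sums of 59.4 to 209 in TugelaDn1, 82.7 to 314 in TugelaDn2, 32 to 55.5 in TugelaDn5 and 154 to 325 in Tugela, and 1 of them, Ta.905.2.S1_x_at, was called lower in TugelaDn5 than in Tugela (-2.96, limma adjusted p = 0.012). The list for dividing tissue matched 5 probe sets of the beta-tubulins tubb2 and Tubb5, 2 of its 11 genes, with sums of 4069 to 6456 in TugelaDn1, 8218 to 8489 in TugelaDn2, 8986 to 10907 in TugelaDn5 and 7231 to 8293 in Tugela. Of these, 1 Tubb5 probe set (Ta.214.2.A1_x_at) was called higher in TugelaDn5 than in Tugela (1.07, limma adjusted p = 0.0473), and tubb2 was called lower in TugelaDn1 than in TugelaDn5 (adjusted p = 0.0326). The part of these markers in the members' values was not tested.

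One library needs naming before the members. Across the array, TugelaDn1 repeat 3 was at least 2 log2 units from the mean of the other TugelaDn1 repeats, with these within 1 of each other and a level of 8 or more, in 158 probe sets, 107 lower and 51 higher, a rule chosen after the data were seen. TugelaDn1 repeats 1 and 2 gave 52 and 41, and TugelaDn2 repeat 3 gave 163. Of the 17 members, 3 were among these 158 of 61179 probe sets and 0 among those of any other repeat. The rule favours such members, because a low repeat lowers the line mean that the rule uses. Without repeat 3, the TugelaDn1 differences of these 3 from Tugela were -0.50, -0.29 and -0.77, short of the required 0.8. The count is therefore not read as a result about the members. No label sets this repeat apart. Without it, 20 probe sets met the rule, 13 of them among the 17, and 7 others.

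Only 1 of the 17 members, Ta.30336.1.S1_x_at, is paired with a gene in the platform's table, LOC542792, and neither that table nor RefSeq gives it a name or function. That is 5.88% of the members, against 3.67% of the 18730 probe sets as bright in Tugela and 2.08% of all. The other 16 are known by their identifiers alone, and no role is given to them. Ta. and TaAffx. mark the source of the design sequence, the number after it the transcript cluster, and the ending the specificity of the probes: _x_at, _s_at and _a_at probe sets can share probes with other transcripts. Of the members, 29.4% are TaAffx. probe sets, against 23.5% of the bright and 48.5% of all probe sets, and 17.6% end in _x_at, against 17.7% and 11.1%. None ends in _a_at, an ending of 13.1% of the bright probe sets. The members fall in 16 clusters, since Ta.5897.3.S1_at and Ta.5897.3.S1_x_at read the same cluster sequence and are not 2 independent transcripts.

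**Figure D1:**
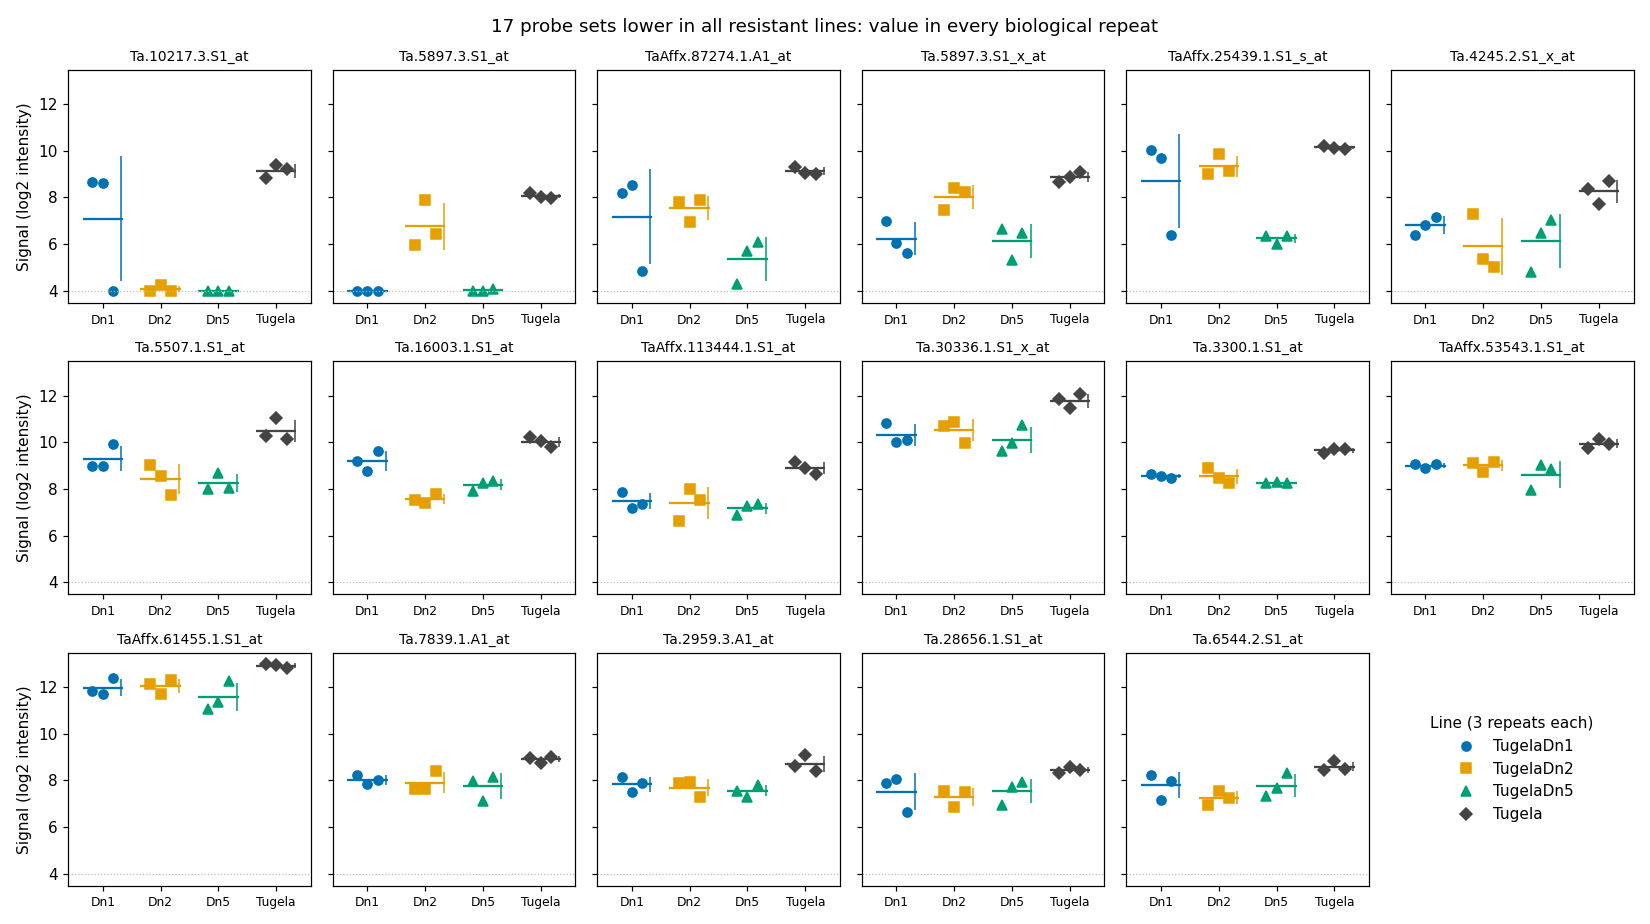
Log2 signal (vertical axis) of the 17 members in every biological repeat of TugelaDn1, TugelaDn2, TugelaDn5 and Tugela. Points are repeats, horizontal bars are line means, vertical bars beside them are 1 SD (n = 3) and the dotted line is the floor of 4; all Tugela points lie above all resistant points of the same panel, by 0.05 in TaAffx.25439.1.S1_s_at to 0.68 in TaAffx.113444.1.S1_at.

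LOC542792 (Ta.30336.1.S1_x_at) was among the brightest members. Its log2 signal was 10.84, 10.02 and 10.09 in TugelaDn1, 10.70, 10.88 and 9.99 in TugelaDn2 and 9.63, 9.97 and 10.72 in TugelaDn5, against 11.85, 11.45 and 12.05 in Tugela. The resistant lines overlapped each other throughout, and a gap of 0.56 separated their highest repeat from the lowest of Tugela. The means were 10.32 ± 0.45, 10.53 ± 0.47 and 10.11 ± 0.56 in TugelaDn1, TugelaDn2 and TugelaDn5 and 11.78 ± 0.31 in Tugela (SD, n = 3 each), which is 2.76-fold, 2.39-fold and 3.19-fold lower. No difference among the resistant lines passed the threshold for this gene: the log2 difference of TugelaDn1 minus TugelaDn2 was -0.21 (95% interval -1.01 to 0.59), that of TugelaDn1 minus TugelaDn5 0.21 (-0.60 to 1.01) and that of TugelaDn2 minus TugelaDn5 0.42 (-0.39 to 1.22). That Tugela was highest was set by the rule. No order among the resistant lines was resolved, and their intervals reach as far as 1.22, so equal levels are not shown. No other probe set on the array is paired with LOC542792. The members whose pattern was most like it over the 12 repeats were Ta.3300.1.S1_at (Pearson r = 0.87), Ta.2959.3.A1_at (r = 0.85) and TaAffx.113444.1.S1_at (r = 0.84). The rule fixes much of this likeness, because every member is high in the same 3 repeats. Around the line means, r was 0.33, 0.47 and 0.32 for these 3.

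A group of members, like LOC542792, had resistant line means within 0.53 of each other, though equal levels are not shown. TaAffx.61455.1.S1_at, the brightest member, had 11.83, 11.72 and 12.38 in TugelaDn1, 12.14, 11.71 and 12.30 in TugelaDn2 and 11.08, 11.38 and 12.27 in TugelaDn5, against 13.01, 12.94 and 12.81 in Tugela. It was 1.93-fold, 1.83-fold and 2.53-fold lower in TugelaDn1, TugelaDn2 and TugelaDn5. Repeats 1 and 2 of TugelaDn5 were the lowest, and repeat 3 of each resistant line was the highest of its line.

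Ta.3300.1.S1_at had the narrowest range over the resistant repeats. It had 8.64, 8.55 and 8.48 in TugelaDn1, 8.89, 8.46 and 8.26 in TugelaDn2 and 8.25, 8.31 and 8.24 in TugelaDn5, against 9.54, 9.71 and 9.70 in Tugela. The means, 8.56 ± 0.08, 8.54 ± 0.32 and 8.27 ± 0.04 against 9.65 ± 0.10 (SD, n = 3 each), put it 2.13-fold, 2.16-fold and 2.61-fold lower. A gap of 0.65 lay between the resistant repeats and Tugela, where the rule itself required some gap. TugelaDn1 and TugelaDn2 differed by 0.02 (95% interval -0.35 to 0.39), and TugelaDn5 was the lowest line, within intervals that include 0 (0.29, -0.08 to 0.67 for TugelaDn1 minus TugelaDn5, and 0.27, -0.10 to 0.65 for TugelaDn2 minus TugelaDn5).

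TaAffx.113444.1.S1_at had the widest gap to Tugela, 0.68. Its values were 7.89, 7.20 and 7.37 in TugelaDn1, 6.64, 7.98 and 7.53 in TugelaDn2 and 6.90, 7.29 and 7.34 in TugelaDn5, against 9.14, 8.90 and 8.66 in Tugela. It was 2.67-fold, 2.87-fold and 3.30-fold lower in TugelaDn1, TugelaDn2 and TugelaDn5, whose repeats overlapped each other. The repeated arrays of TugelaDn5 repeat 3 differed by 1.02 on this probe set, the most among the members.

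TaAffx.53543.1.S1_at had 9.05, 8.88 and 9.06 in TugelaDn1, 9.13, 8.74 and 9.17 in TugelaDn2 and 7.97, 9.01 and 8.87 in TugelaDn5, against 9.75, 10.13 and 9.93 in Tugela. TugelaDn5 repeat 1 alone was low, and the other 8 resistant repeats lay between 8.74 and 9.17. The line means differed from Tugela by -0.94, -0.92 and -1.32 in TugelaDn1, TugelaDn2 and TugelaDn5.

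Ta.7839.1.A1_at had 8.23, 7.84 and 8.0 in TugelaDn1, 7.63, 7.64 and 8.42 in TugelaDn2 and 7.99, 7.13 and 8.17 in TugelaDn5, against 8.96, 8.77 and 9.02 in Tugela. Ta.2959.3.A1_at had 8.13, 7.49 and 7.88 in TugelaDn1, 7.88, 7.92 and 7.29 in TugelaDn2 and 7.57, 7.31 and 7.79 in TugelaDn5, against 8.63, 9.07 and 8.41 in Tugela. In both, the 3 resistant lines overlapped and TugelaDn5 had the lowest mean, with a difference from Tugela of -1.15 in Ta.7839.1.A1_at and -1.14 in Ta.2959.3.A1_at.

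Ta.6544.2.S1_at had 8.23, 7.16 and 7.99 in TugelaDn1, 6.97, 7.56 and 7.27 in TugelaDn2 and 7.33, 7.68 and 8.31 in TugelaDn5, against 8.46, 8.84 and 8.49 in Tugela. It stood closest to the required distance, at -0.80 in TugelaDn1 and -0.82 in TugelaDn5, while TugelaDn2 was at -1.33. With 1 repeat left out it met the rule in 8 of 12 cases.

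Ta.5507.1.S1_at, Ta.4245.2.S1_x_at and Ta.16003.1.S1_at were further below Tugela in TugelaDn2 and TugelaDn5 than in TugelaDn1. Ta.5507.1.S1_at had 8.97, 9.0 and 9.94 in TugelaDn1, 9.02, 8.56 and 7.73 in TugelaDn2 and 8.02, 8.69 and 8.03 in TugelaDn5, against 10.27, 11.03 and 10.15 in Tugela. It was 2.26-fold lower in TugelaDn1, 4.12-fold in TugelaDn2 and 4.71-fold in TugelaDn5. TugelaDn1 lay above TugelaDn5 without overlap, with a log2 difference of 1.06 that did not pass the threshold (limma adjusted p = 0.289).

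Ta.4245.2.S1_x_at had 6.41, 6.84 and 7.17 in TugelaDn1, 7.30, 5.38 and 5.04 in TugelaDn2 and 4.82, 6.49 and 7.05 in TugelaDn5, against 8.36, 7.72 and 8.70 in Tugela. The repeats of TugelaDn2 and of TugelaDn5 were spread over more than 2 log2 units each, with SDs of 1.22 and 1.16. Its line means were 2.73-fold, 5.11-fold and 4.40-fold lower in TugelaDn1, TugelaDn2 and TugelaDn5, and the 3 resistant lines overlapped.

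Ta.16003.1.S1_at gave the clearest order of the lines. It had 9.21, 8.78 and 9.62 in TugelaDn1, 7.53, 7.40 and 7.79 in TugelaDn2 and 7.91, 8.25 and 8.36 in TugelaDn5, against 10.24, 10.04 and 9.80 in Tugela. All 4 lines were separate, with Tugela highest, then TugelaDn1, TugelaDn5 and TugelaDn2, and the folds below Tugela were 1.77 in TugelaDn1, 3.62 in TugelaDn5 and 5.48 in TugelaDn2. TugelaDn1 exceeded TugelaDn2 by 1.63 (SE 0.237, 95% interval 1.1 to 2.16, limma adjusted p = 0.0579) and TugelaDn5 by 1.03 (0.50 to 1.56, adjusted p = 0.0676), both just short of the threshold. TugelaDn2 minus TugelaDn5 was -0.60 (adjusted p = 0.382). TugelaDn1 minus TugelaDn2 passed under 5 of 22 alternatives, of which 1 dropped TugelaDn1 repeat 2 from the fit (1.84, adjusted p = 0.0374). That repeat was the lowest of its line, and without it TugelaDn1 minus TugelaDn5 passed as well (1.24, adjusted p = 0.039).

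Cluster Ta.5897 carried the only difference between resistant lines that passed the threshold in the fit of all lines and repeats. Ta.5897.3.S1_at was at 4.0 in all repeats of TugelaDn1, had 5.95, 7.88 and 6.44 in TugelaDn2 and 4.0, 4.0 and 4.10 in TugelaDn5, against 8.18, 8.02 and 7.99 in Tugela. TugelaDn1 and TugelaDn5 were at or next to the floor, and TugelaDn2 was spread between the floor and Tugela, with repeat 2 within 0.11 of the lowest Tugela repeat. The signal was at least 16.7-fold lower in TugelaDn1, 2.47-fold lower in TugelaDn2 and at least 16.3-fold lower in TugelaDn5. TugelaDn2 minus TugelaDn5 was 2.72 on the log2 scale, at least 6.60-fold (SE 0.395, 95% interval 1.84 to 3.61, limma adjusted p = 0.009). TugelaDn1 minus TugelaDn2 was of almost the same size, -2.76 (-3.64 to -1.87), with an adjusted p of 0.0577, short of the threshold in a contrast with far fewer calls. The call in TugelaDn2 minus TugelaDn5 was lost in 4 of 21 alternatives, in which the difference ranged over 0.29 to 3.13 and the adjusted p over 0.000673 to 0.938. Higher floors, at 2, 4 and 8 times 16, ended it (adjusted p of 0.0701, 0.595 and 0.938), since they raise the dim values toward those of TugelaDn2. So did a fit of the compared lines alone, at the same difference (adjusted p = 0.154). The SD was 0.00 in TugelaDn1 and 0.06 in TugelaDn5, at the floor, against 1.01 in TugelaDn2. The fit shares 1 spread over all lines, so the floor narrows the spread behind the SE, intervals and adjusted p given here.

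The second probe set of that sequence, Ta.5897.3.S1_x_at, had 7.01, 6.07 and 5.64 in TugelaDn1, 7.45, 8.39 and 8.25 in TugelaDn2 and 6.64, 5.32 and 6.49 in TugelaDn5, against 8.68, 8.87 and 9.11 in Tugela. It had the same order, with TugelaDn2 above TugelaDn1 and TugelaDn5 in every repeat, and its values stood clear of the floor. TugelaDn2 minus TugelaDn5 was 1.88 (0.89 to 2.87, limma adjusted p = 0.0958) and TugelaDn1 minus TugelaDn2 -1.79 (adjusted p = 0.233), neither past the threshold. The first of these passed in 2 of 22 alternatives, with adjusted p of 0.0255 (trend and robust) and 0.0388 (probe sets above the median level). The folds below Tugela were 6.25 in TugelaDn1, 1.81 in TugelaDn2 and 6.65 in TugelaDn5. Of the 3 other probe sets in the cluster, Ta.5897.2.S1_x_at missed the rule only by its level: it had 6.03, 5.42 and 5.01 in TugelaDn1, 6.05, 6.36 and 6.62 in TugelaDn2 and 5.76, 6.09 and 5.61 in TugelaDn5, against 7.35, 7.41 and 7.22 in Tugela. All resistant repeats were again below Tugela and TugelaDn2 was the nearest line. Ta.5897.1.S1_a_at, at 8.78 ± 0.02 in Tugela, differed little, by -0.35, -0.06 and -0.57 in TugelaDn1, TugelaDn2 and TugelaDn5. Probe sets ending in _x_at and _a_at can share probes, so likeness within the cluster is not independent.

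**Figure D2:**
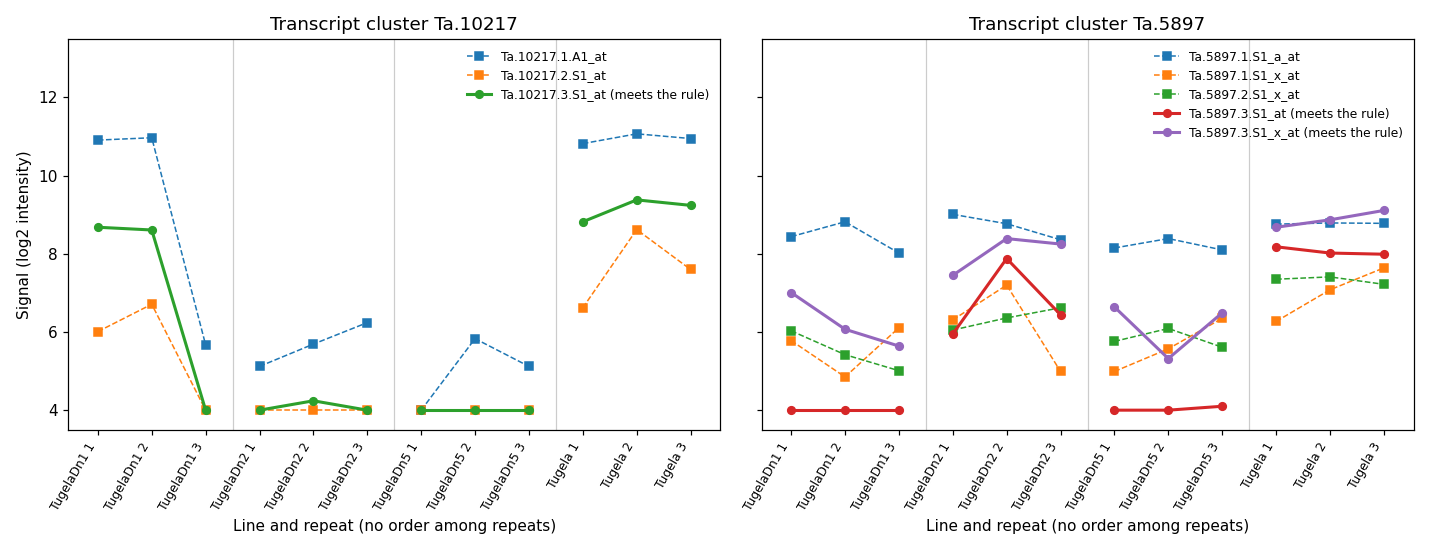
Log2 signal (vertical axis) in each repeat (horizontal axis, lines separated by grey bars) of all probe sets in clusters Ta.10217 and Ta.5897; solid lines are members, dashed lines the other probe sets of the cluster. In Ta.10217 all 3 probe sets are low in TugelaDn1 repeat 3 (4.0, 5.67 and 4.0) and higher in TugelaDn1 repeats 1 and 2, and in Ta.5897 both members have their highest resistant mean in TugelaDn2.

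Another group rested on 1 library, TugelaDn1 repeat 3. Ta.10217.3.S1_at had 8.68, 8.61 and 4.0 in TugelaDn1, 4.0, 4.24 and 4.0 in TugelaDn2 and 4.0 in all repeats of TugelaDn5, against 8.82, 9.38 and 9.24 in Tugela. TugelaDn1 repeats 1 and 2 came close to the lowest Tugela repeat, by 0.14 for the higher of them, while repeat 3 was at the floor with TugelaDn2 and TugelaDn5. The folds below Tugela were at least 33.6 in TugelaDn2 and at least 35.5 in TugelaDn5, the largest of any member, and in TugelaDn1 the mean of 7.10 ± 2.68 (SD, n = 3) stands for no single repeat. Over its first 2 repeats TugelaDn1 averaged 8.65, a difference of -0.50 from Tugela, so that without repeat 3 the rule was not met. With all repeats, TugelaDn1 minus TugelaDn2 was 3.02 (0.73 to 5.31, limma adjusted p = 0.415) and TugelaDn1 minus TugelaDn5 3.10 (0.81 to 5.39, adjusted p = 0.205). Without repeat 3, they were 4.57 (adjusted p = 8.03e-05) and 4.65 (adjusted p = 1.9e-05). These values describe the dependence on 1 repeat and are no separate evidence: 5 of the 6 TugelaDn2 and TugelaDn5 values are at the floor, so the differences are lower bounds and the spread is narrowed by the floor.

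The other probe sets of the cluster showed the same split. Ta.10217.1.A1_at had 10.91, 10.97 and 5.67 in TugelaDn1, 5.12, 5.69 and 6.24 in TugelaDn2 and 4.0, 5.83 and 5.12 in TugelaDn5, against 10.82, 11.07 and 10.95 in Tugela. It was left out of the members because TugelaDn1 repeats 1 and 2 overlapped Tugela, although the log2 difference from Tugela was -5.26 in TugelaDn2 and -5.96 in TugelaDn5. Ta.10217.2.S1_at, the third probe set, had 6.01, 6.71 and 4.0 in TugelaDn1 and 4.0 in every repeat of TugelaDn2 and TugelaDn5, against 6.62, 8.62 and 7.60 in Tugela. Over the 12 repeats these 2 correlated with the member at r = 0.98 and r = 0.96.

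TaAffx.25439.1.S1_s_at had 10.04, 9.67 and 6.39 in TugelaDn1, 9.0, 9.85 and 9.14 in TugelaDn2 and 6.36, 6.01 and 6.36 in TugelaDn5, against 10.21, 10.14 and 10.09 in Tugela. TugelaDn1 repeat 3 was at the level of TugelaDn5, the other TugelaDn1 repeats and TugelaDn2 near Tugela. Only TugelaDn5 was low in all repeats, 14.98-fold below Tugela, and the gap of 0.05 was the smallest of any member. TugelaDn2 exceeded TugelaDn5 by 3.09 (1.33 to 4.85) without overlap, which did not pass (limma adjusted p = 0.126), and TugelaDn1 exceeded TugelaDn5 by 2.46 (adjusted p = 0.188). Without TugelaDn1 repeat 3 both passed, at 3.09 (adjusted p = 0.000457) and 3.62 (adjusted p = 0.000435). The fit shares 1 spread over all lines, so the first passed at an unchanged difference. In the second the difference grew as well, since the repeat left out was the low one of TugelaDn1. TugelaDn2 minus TugelaDn5 also passed in a fit of these lines alone (3.09, limma adjusted p = 0.025).

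TaAffx.87274.1.A1_at had 8.20, 8.52 and 4.83 in TugelaDn1, 7.82, 6.95 and 7.9 in TugelaDn2 and 4.29, 5.71 and 6.09 in TugelaDn5, against 9.31, 9.05 and 9.02 in Tugela. Again TugelaDn1 repeat 3 lay within the range of TugelaDn5, which was 13.6-fold below Tugela. TugelaDn2 minus TugelaDn5 was 2.19 (0.22 to 4.17, limma adjusted p = 0.390), and without TugelaDn1 repeat 3 TugelaDn1 exceeded TugelaDn5 by 3.00 (adjusted p = 0.0291).

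Ta.28656.1.S1_at had 7.9, 8.05 and 6.63 in TugelaDn1, 7.55, 6.87 and 7.49 in TugelaDn2 and 6.97, 7.73 and 7.92 in TugelaDn5, against 8.31, 8.59 and 8.45 in Tugela. TugelaDn1 repeat 3 was the lowest of all 12 repeats, and the remaining resistant repeats lay between 6.87 and 8.05. Without that repeat TugelaDn1 differed from Tugela by -0.48, short of the required distance. For TaAffx.25439.1.S1_s_at and TaAffx.87274.1.A1_at the difference without it was -0.29 and -0.77.

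**Figure D3:**
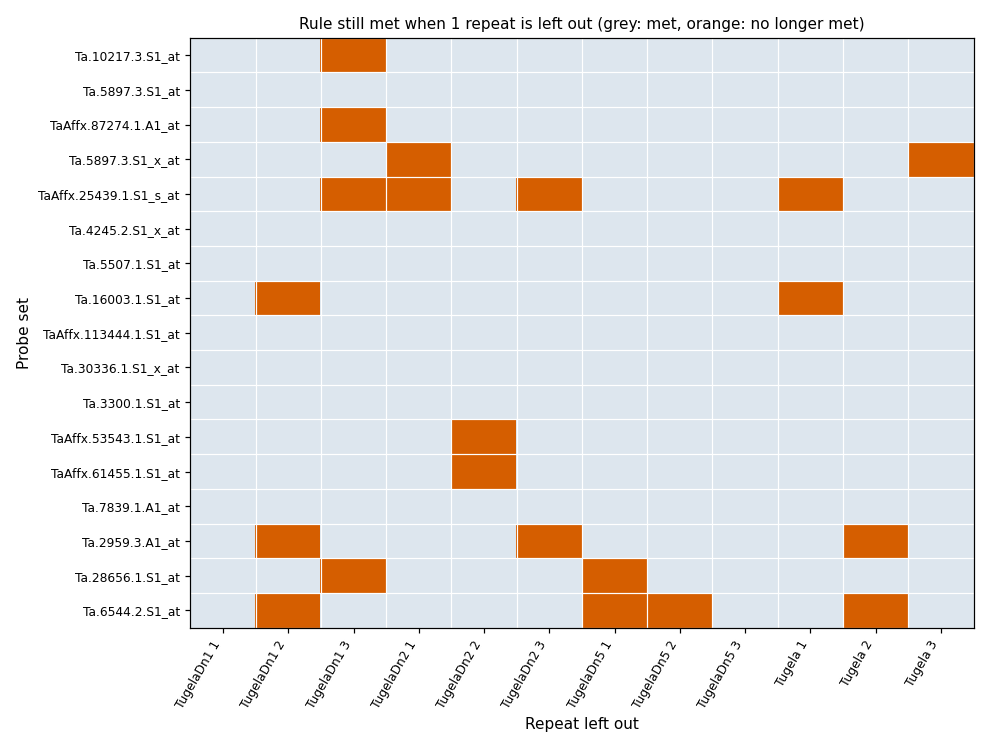
Members (rows) that still met the rule when 1 of the 12 repeats (columns) was left out; grey is met and orange is not. TugelaDn1 repeat 3 removes 4 members and Ta.6544.2.S1_at and TaAffx.25439.1.S1_s_at are lost most often, in 4 of 12 columns each, while 7 members are met in every column.

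As a description with no test, the median log2 distance of the members from Tugela was -1.18 in TugelaDn1, -1.26 in TugelaDn2 and -1.72 in TugelaDn5. Without TugelaDn1 repeat 3 the TugelaDn1 median was -1.04. The line nearest to Tugela was TugelaDn1 in 9 members, TugelaDn2 in 7 and TugelaDn5 in 1. The repeats of TugelaDn5 were not alike in this: their medians over the members were -2.12, -1.78 and -1.41 in repeats 1, 2 and 3, against -0.92, -1.21 and -1.16 in TugelaDn1 and -1.29, -1.19 and -1.38 in TugelaDn2. Repeat 3 of TugelaDn5 was thus close to the lowest repeats of TugelaDn2.

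**Figure D4:**
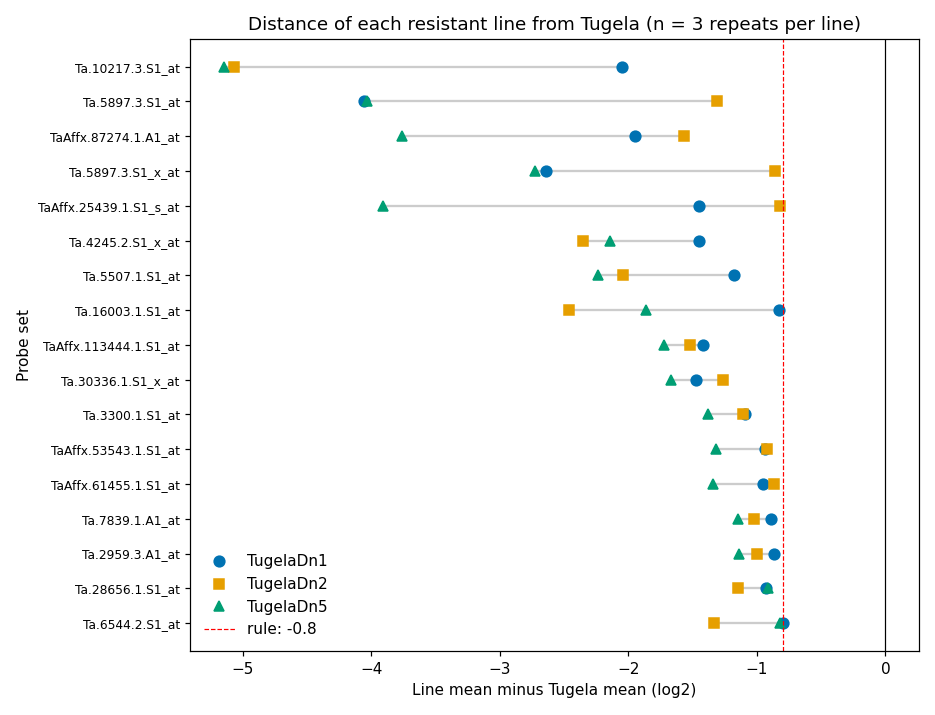
Mean log2 signal of TugelaDn1, TugelaDn2 and TugelaDn5 minus that of Tugela (horizontal axis, n = 3 repeats per line) for each of the 17 members (rows); the dashed line is the distance of 0.8 that the rule required. The lines spread over more than 2 log2 units in the top 3 rows and in TaAffx.25439.1.S1_s_at (3.09), against 0.24 in Ta.28656.1.S1_at, the narrowest.

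To assess whether the lines themselves differed on the members, the 3 contrasts among resistant lines were tested in limma over all probe sets. TugelaDn1 minus TugelaDn2 had 0 of 17 members called higher (background 0.0409% of all probe sets) and 0 lower (0.0327%), with 2 and 2 at an unadjusted p under 0.05. When limma's eBayes used a trend and robust setting, 2 were called, while the share of all probe sets called rose from 0.0736% to 0.541%. TugelaDn1 was higher by the mean in 10 members and lower in 7, and the median difference was 0.10, against -0.00 over all probe sets. Its repeats lay all above those of TugelaDn2 in 1 member (background 6.56%) and all below in 2 (6.46%). TugelaDn1 minus TugelaDn5 had 0 of 17 called higher (background 1.19%) and 0 lower (0.704%), with 4 and 0 at an unadjusted p under 0.05. With the trend and robust setting 1 was called, while the share of all probe sets called rose from 1.89% to 3.69%. The mean was higher in TugelaDn1 in 15 of 17 members, with a median of 0.31 against -0.00 over all, and the repeats did not overlap in 4 members, all higher in TugelaDn1 (background 8.57%), and in 0 lower (9.23%). TugelaDn2 minus TugelaDn5 had 1 of 17 called higher (background 0.863%), Ta.5897.3.S1_at, and 0 lower (0.425%), with 4 and 1 at an unadjusted p under 0.05. With the trend and robust setting 2 were called, while the share of all probe sets called rose from 1.29% to 2.31%. The mean was higher in TugelaDn2 in 13 members, with a median of 0.21 against -0.01 over all, and the repeats did not overlap in 4 members higher in TugelaDn2 (7.63%) and 1 lower (8.58%). The contrasts share lines, so their counts are not independent of each other. The half-width of the 95% interval was 0.80 in the median member and 2.29 in the widest.

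**Figure D5:**
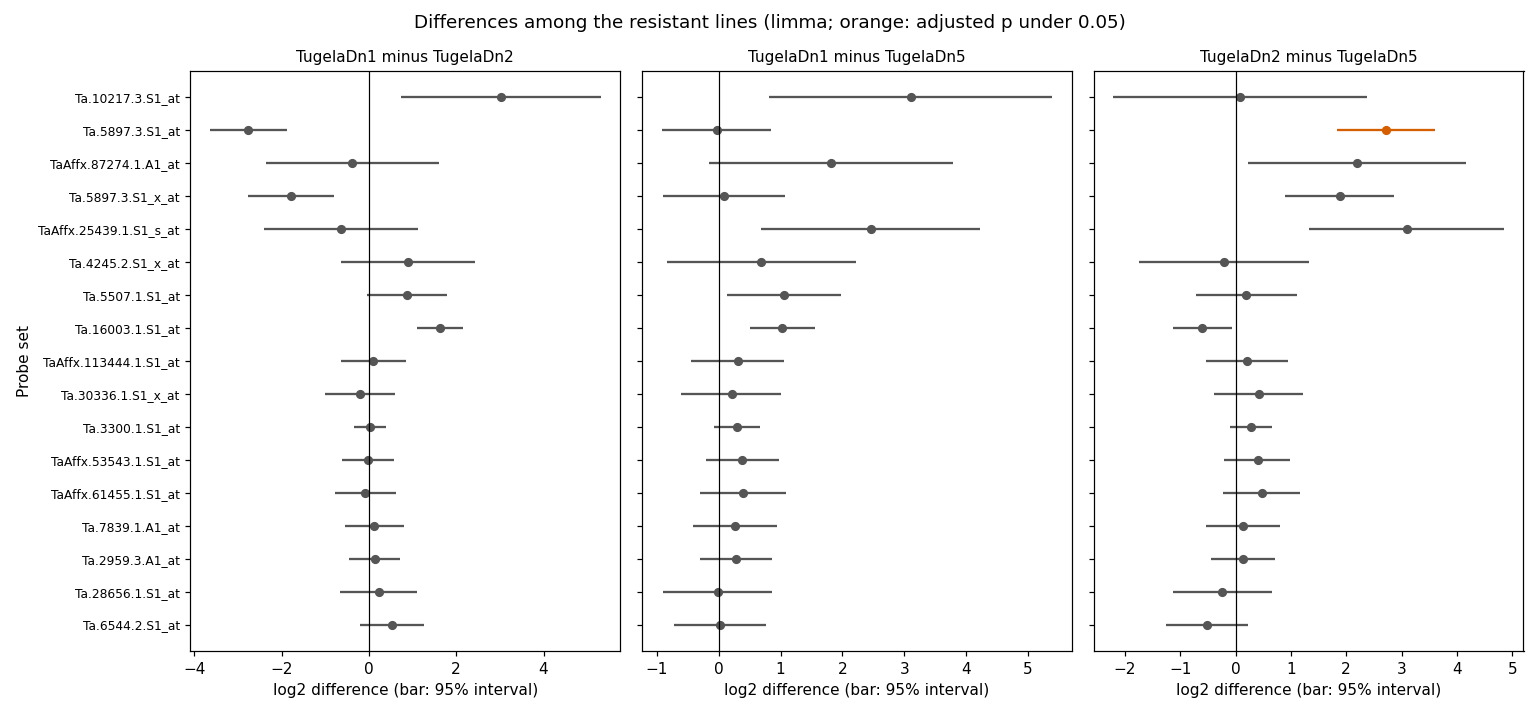
Log2 difference (horizontal axis) between resistant lines for each of the 17 members (rows): TugelaDn1 minus TugelaDn2, TugelaDn1 minus TugelaDn5 and TugelaDn2 minus TugelaDn5, with 95% intervals from limma (n = 3 per line). The single member called, in orange, is Ta.5897.3.S1_at in TugelaDn2 minus TugelaDn5, at 2.72 with an interval of 1.84 to 3.61.

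Single-line limma calls against Tugela, which the rule had used and which are given as a description, were uneven. In TugelaDn1 1 member was called lower (0.00654% of all probe sets were), in TugelaDn2 1 (0.0196%) and in TugelaDn5 10 (1.25%). Ta.16003.1.S1_at and Ta.5897.3.S1_at were called in 2 lines, 8 members in 1 and 7 in none. No member was called in all 3, and 13, 14 and 17 had an unadjusted p under 0.05 in TugelaDn1, TugelaDn2 and TugelaDn5.

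As a description, the members had larger SDs between repeats in the resistant lines than in Tugela. The median SD over the members was 0.424 for TugelaDn1, 0.454 for TugelaDn2 and 0.493 for TugelaDn5, against 0.207 for Tugela. Over the 18730 probe sets as bright in Tugela, it was 0.208, 0.187 and 0.181 in the resistant lines and 0.191 in Tugela. The rule used these same values, bounding the resistant repeats from above and the Tugela repeats from below. The members were also dimmer in the resistant lines by their choice. The part of either in the spread was not tested. Between the 2 arrays of TugelaDn5 repeat 3, the median absolute difference was 0.261 for the members and 0.0907 for the bright probe sets. Using either array alone kept 16 or 17 of the members, with Ta.6544.2.S1_at lost under the first.

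Beyond the clusters Ta.10217 and Ta.5897, other probe sets of a member's cluster did not show its distance from Tugela in every line. Of the 17 members, 6 had another probe set in the cluster and 11 had none. Of the 13 such probe sets, those of Ta.10217 and Ta.5897 included, 10 had means below Tugela in all resistant lines, against 25% of all probe sets outside the members. The 1 with no overlap was Ta.5897.2.S1_x_at. Probe sets of a cluster can read the member's transcript or share its probes, so these counts are not independent of the rule. Ta.2959.3.A1_a_at, which reads the same sequence number as the member Ta.2959.3.A1_at at a much higher signal (11.77 ± 0.25 in Tugela), differed from Tugela by -0.38, -0.26 and -0.45 in TugelaDn1, TugelaDn2 and TugelaDn5. Ta.4245.1.S1_at was near equal in all lines, with differences from Tugela of 0.17, -0.08 and 0.18. In cluster Ta.6544, Ta.6544.1.S1_a_at was 13.36 ± 0.10, 12.90 ± 0.35 and 12.96 ± 0.18 in TugelaDn1, TugelaDn2 and TugelaDn5 and 13.37 ± 0.15 in Tugela (SD, n = 3 each). In these clusters the brighter probe sets stayed within 0.8 of Tugela while the member did not.

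Each limit of the rule left probe sets close by on both sides. The smallest gaps inside were 0.05 (TaAffx.25439.1.S1_s_at), 0.106 (Ta.5897.3.S1_at) and 0.141 (Ta.10217.3.S1_at), and the nearest outside were gaps of -0.078 (Ta.12090.1.A1_at), -0.087 (Ta.12181.2.S1_x_at) and -0.148 (Ta.10217.1.A1_at). For the line nearest to Tugela, -0.801 (Ta.6544.2.S1_at), -0.815 (TaAffx.25439.1.S1_s_at) and -0.825 (Ta.16003.1.S1_at) lay inside, and -0.790 (TaAffx.50894.1.S1_at), -0.787 (Ta.11482.1.A1_at) and -0.765 (Ta.11919.2.S1_a_at) outside. For the Tugela mean, 8.063 (Ta.5897.3.S1_at), 8.259 (Ta.4245.2.S1_x_at) and 8.453 (Ta.28656.1.S1_at) lay inside, and 7.959 (Ta.3467.2.S1_a_at), 7.944 (TaAffx.56033.1.S1_at) and 7.922 (TaAffx.46799.2.S1_at) outside.

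The list of defence genes matched 10 probe sets of 7 of its 24 genes, and 0 met the rule. With 16 members paired with no gene, whether any member is a defence gene is not known here. The summed intensity of the 10 probe sets was 44632 to 53686 in TugelaDn1, 37557 to 45466 in TugelaDn2 and 36042 to 44168 in TugelaDn5, against 33347 to 40869 in Tugela. The sums of TugelaDn1 all lay above those of Tugela, and the other lines overlapped it. Sums weigh the brightest probe sets most: over the 10, the median log2 difference of TugelaDn1 from Tugela was 0.01. Between resistant lines 0 of the 10 were called by limma, with 0 to 3 at an unadjusted p under 0.05. LTP3, a lipid transfer protein gene, was the single one called against Tugela, on Ta.1282.4.S1_at, which had means of 8.64, 8.66 and 7.17 in TugelaDn1, TugelaDn2 and TugelaDn5 and 9.27 in Tugela, with the TugelaDn5 difference of -2.11 called (limma adjusted p = 0.0275) and the others not. On the brighter LTP3 probe set, Ta.1282.1.S1_x_at, the differences were 0.01, -0.32 and -0.18. PR5, a thaumatin-like pathogenesis-related gene, was on the other side of Tugela, at 13.70, 13.53 and 12.49 in TugelaDn1, TugelaDn2 and TugelaDn5 and 10.28 in Tugela, with limma adjusted p from 0.564 to 0.652. Its TugelaDn1 difference of 3.42, not called, was the largest rise of the 10 and weighs on the sums.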

How the data were processed

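Total RNA of infested leaves, read as 12 biological repeats, was hybridised to 13 single-colour arrays. The authors deposited linear intensity values per probe set, scaled so that each array had a mean of 500.1 once 2% of values had been trimmed from either tail. The summarising software is not given in the sources used here. Of 61290 probe sets, 111 controls were removed and 61179 tested. Intensities were floored at 16 and log2 was taken; the authors' values were not log2. The descriptions of the TugelaDn2 and TugelaDn5 samples name TugelaDn1 and were overruled by title and genotype. One TugelaDn5 array is titled biological repeat 3_2. It was read as a second array of repeat 3, which its title does not state, and arrays 3 and 3_2 were averaged as 1 repeat. The other replicates are those the labels call biological repeats.

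Contrasts came from a linear model per probe set (limma 3.58.1, under R 4.3.3, default eBayes), all 4 lines in 1 fit, with 8 residual and 1.45 prior degrees of freedom. A probe set was called at a Benjamini-Hochberg adjusted p under 0.05 over 61179. Folds with repeats at the floor are lower bounds. Precision is limited by the number of arrays.

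The members, the gene lists and the alternatives were chosen with earlier results of these data known. Every member is named. Genes came from the platform's probe table (1273 probe sets with 1 gene, 771 genes), with 770 identifiers found in the RefSeq table. Lists for leaf, seed storage, dividing tissue, defence, and sucrose, cell wall and energy genes were matched by symbol or RefSeq synonym, and the last matched none. Alternatives were floors of 2, 4 and 8 times 16, quantile normalization, either array of TugelaDn5 repeat 3, leaving out each repeat, other limits of the rule, a filter on the level, eBayes with trend and robust, a replicate block and fits of the compared lines alone. Sequences were not used here.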

Additional observations from a re-analysis of the deposited data

Results flagged for a closer look

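One result stood out by a tested difference between lines in their distance from Tugela. Ta.5897.3.S1_at, which was below Tugela in all resistant lines, was higher in TugelaDn2 than in TugelaDn5 by 2.72 on the log2 scale (6.76 ± 1.01 and 4.03 ± 0.06, SD, n = 3 each; limma adjusted p = 0.009), and the repeats of the lines did not overlap. The same Tugela mean stands in both distances, so the difference between the distances is the difference between these lines. Because 2 of the 3 TugelaDn5 repeats were at the floor, the size is a lower bound. The adjusted p rests on a spread shared over all lines, which the floor narrows. The call was lost in 4 of 21 alternatives, which were the 3 higher floors and the fit of the compared lines alone (2.72, adjusted p = 0.154). The second probe set of the sequence, Ta.5897.3.S1_x_at, differed in the same direction by 1.88 and did not pass (adjusted p = 0.0958), although it did in 2 of 22 alternatives.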

How the results depend on the processing

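The number of probe sets meeting the rule was 15 to 57 when 1 repeat was left out (57, 26 and 41 without Tugela repeats 1, 2 and 3). It was 66 with a distance of 0.5, 8 with 1, 79 with a Tugela mean of 6 or more and 5 with 10 or more. Floors of 32 and 64 kept all 17 members, a floor of 8 times 16 lost Ta.5897.3.S1_at and quantile normalization added 1 probe set. LOC542792 and Ta.5507.1.S1_at met the rule in all 22 settings, and Ta.6544.2.S1_at in 15.

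Calls between resistant lines moved as follows, and the share called over all probe sets moved too. In TugelaDn1 minus TugelaDn2, TugelaDn1 minus TugelaDn5 and TugelaDn2 minus TugelaDn5 that share was 0.0736%, 1.89% and 1.29%. At a floor of 32 it was 0.163%, 3.09% and 1.79%. Among probe sets above the median level it was 0.327%, 6.34% and 3.78% of those. When a repeat was left out it ranged over 0.0392% to 0.119%, 1.12% to 2.04% and 0.832% to 1.39%. Without TugelaDn1 repeat 3 it was 1.53% in TugelaDn1 minus TugelaDn5. For TugelaDn1 minus TugelaDn2, 1 member was called with floors of 32 and 64, quantile normalization and probe sets above the median level only (15 members tested), 2 with trend and robust, and 0 to 1 when a repeat was left out, against 0. For TugelaDn1 minus TugelaDn5, 1 was called with floors of 32 and 64, above the median level, and with trend and robust, and 0 to 3 when a repeat was left out, with 3 without TugelaDn1 repeat 3, against 0. For TugelaDn2 minus TugelaDn5, 0 were called with all 3 higher floors, 2 with trend and robust, and 1 to 2 when a repeat was left out, against 1. The call of Ta.5897.3.S1_at in that contrast was lost with all 3 higher floors (1.76, 0.77 and 0.29) and with the compared lines alone in the fit (2.72, adjusted p = 0.154), and was 2.16 to 3.13 when a repeat was left out. It was not tested among probe sets above the median level. With the compared lines alone in the fit, TaAffx.25439.1.S1_s_at was called in that contrast instead (3.09, limma adjusted p = 0.025).

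Against Tugela, where the rule used the contrast, TugelaDn1 had 0 members called with all 3 higher floors and above the median level, 2 with trend and robust, and 0 to 1 when a repeat was left out, against 1. TugelaDn2 had 2 with floors of 32 and 64 and above the median level, 4 with trend and robust, and 1 to 2 when a repeat was left out, against 1. TugelaDn5 had 14 with trend and robust, 12 above the median level, and 3 to 9 when a repeat was left out, against 10. The share called over all probe sets moved too. With trend and robust it rose from 0.00817% to 0.0294% in TugelaDn1, from 0.0376% to 0.415% in TugelaDn2 and from 2.07% to 3.88% in TugelaDn5. Among probe sets above the median level it was 0.00654%, 0.101% and 6.6% of those. When a repeat was left out it ranged over 0.0049% to 0.105%, 0.036% to 0.0752% and 1.19% to 2.15%. Except where stated, the cause was not tested.

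Repeat numbers did not pair the samples: deviations of same-numbered repeats correlated at -0.11 to 0.14, and 3 of 12 repeats correlated best with their own number. With the replicate block 0, 0 and 4 members were called against Tugela in TugelaDn1, TugelaDn2 and TugelaDn5. The share of all probe sets called fell too, to 0.00327%, 0.0131% and 1.41%. The member counts among resistant lines did not change, with Ta.5897.3.S1_at at 2.72 (limma adjusted p = 0.0277). There the share fell to 0.0147% in TugelaDn1 minus TugelaDn2, 1.26% in TugelaDn1 minus TugelaDn5 and 0.932% in TugelaDn2 minus TugelaDn5.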

Other observations

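Probe sets with 1 repeat at least 2 log2 units from the mean of the other repeats of its line were not confined to TugelaDn1. TugelaDn2 repeat 3 had 163, of which 102 were higher and 61 lower, against 22 and 10 in repeats 1 and 2 of that line. TugelaDn5 repeat 3 had 69 and Tugela repeat 1 had 110, against 19 to 32 in the other repeats of these lines. Members were 0 of those in each of these repeats. The 158 probe sets of TugelaDn1 repeat 3 were nearest to TugelaDn5 in 66, to TugelaDn2 in 51 and to Tugela in 41.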
